A study of Mus musculus with 24 samples.

Results

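Expression of 8 genes of the red cell membrane and its skeleton was followed in bone marrow mononuclear cells of Shp2 E76K mice treated with a BTK inhibitor, a PI3K inhibitor, both, or vehicle. Ank1, Sptb, Epb41, Epb42, Slc4a1, Rhag, Rhd and Add2 were chosen by name, and together they make 8 of the 24421 rows of the count table. Epb41 and Epb42 are listed there under the older symbols Epb4.1 and Epb4.2. All 8 passed the filter on low counts, which kept 12742 genes. All 4 groups carried Shp2 E76K, a mutation that activates the Ptpn11 phosphatase and models juvenile myelomonocytic leukemia, and no mice without it are analysed here. The first group received ACP196, which blocks the tyrosine kinase BTK. Another received ACP319, which blocks the delta isoform of the PI3K catalytic subunit p110, and the third, called the combination, received both compounds. The fourth received vehicle, and each treatment lasted 3 weeks. The sources used here give no age or strain and do not say what drives the Shp2 E76K allele. The 24 listed samples carry 12 specimen numbers, and the table holds 1 column per specimen, so each group has 3 specimens, named here by their numbers. BTK inhibitor replicates are 4 to 6, PI3K inhibitor replicates 7 to 9, combination replicates 10 to 12 and vehicle replicates 1 to 3. The labels do not tie a number to its own mouse, so p-values reflect only the spread between specimens, which may be technical in part. Y-linked transcripts were present in vehicle replicates 1 and 2, BTK inhibitor replicate 4, PI3K inhibitor replicate 8 and combination replicate 11. Every group thus held specimens with and without them, so its specimens were not all repeats of 1 sample.

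The red cell keeps its shape through a lattice of spectrin under the lipid bilayer. Ankyrin ties this lattice to the anion exchanger in the bilayer, and actin junctions that hold adducin and the Epb41 protein tie spectrin filaments to each other. The Rh proteins sit in the same membrane assembly. Erythroid precursors in the marrow switch these genes on as they mature, driven by factors such as GATA1 and KLF1, and inherited loss of several of them makes red cells spherical or elliptical and short-lived. In bulk RNA of marrow, fewer cells of a type and less RNA per cell cannot be told apart.

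Total counts lay between 8993950 and 22154833 per specimen. The lowest count of any of the 8 genes was 96, for Epb42 in BTK inhibitor replicate 5, and the highest was 23672, for Slc4a1 in combination replicate 12. BTK inhibitor replicate 5 had the fewest counts, and Rn45s, a ribosomal RNA precursor, took 15.4% of them, against 0.203% to 0.773% in the other 11 specimens. The title of BTK inhibitor replicate 6 carries another day than the other 11 titles, and the labels do not say what was done on that day. Gene length mattered too. The slope of log2 CPM, relative to the mean of all libraries, on log2 gene length was between -0.35 and 0.18 in BTK inhibitor, -0.38 and -0.10 in PI3K inhibitor, 0.09 and 0.29 in combination and 0.12 and 0.40 in vehicle specimens. Among the drug targets, Pik3cd was lower with the PI3K inhibitor than with vehicle (log2 fold change -0.99, adjusted p = 0.0403, edgeR), while Btk and Ptpn11 had adjusted p of 0.836 and 0.237. With a correction for gene length in the model, edgeR called none of the 12742 tested genes in PI3K inhibitor over vehicle. Globin genes could not serve as a check on the erythroid content: 9 globin rows are in the table, 5 held no count, and none held more than 5 counts in any specimen.

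On mm10 coordinates of the count table, Ank1 lies at chr8:22974836-23150497 on the plus strand and Sptb at chr12:76580488-76710547 on the minus strand. Epb41 lies at chr4:131923427-132075313 on the minus strand, Epb42 at chr2:121018217-121036755 on the minus strand, and Slc4a1 at chr11:102348820-102365281 on the minus strand. Rhag lies at chr17:40811149-40840754, Rhd at chr4:134864536-134896172 and Add2 at chr6:86028681-86124409, all on the plus strand. Counts cover the exons of each gene, UTRs included, and the summed exon lengths run from 1514 bases for Rhd and 2316 for Rhag, through 3472 for Epb42, 4550 for Slc4a1 and 6909 for Epb41, to 9018 for Ank1, 9756 for Add2 and 10394 for Sptb. The library kit does not mark strand. Ank1 shares 364 exon bases with Gm15816 on the other strand, a gene that held at most 12 counts in any specimen, and no other row of the table shares exon bases with any of the 8 genes.

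Promoters are shown for 5 of the genes, for Rhag, Rhd and Add2 because their fold changes were positive in all 3 comparisons with vehicle, and for Sptb and Epb42 as genes whose fold changes had both signs there. The windows, credited to RefSeq on GRCm38.p6, run 5′ to 3′ on the gene's own strand from 250 bases before the annotated start to 50 after it. They lie at chr17:40810899-40811198 for Rhag, chr4:134864286-134864585 for Rhd, chr6:86028431-86028730 for Add2, chr12:76710498-76710797 for Sptb and chr2:121036828-121037127 for Epb42. Capitals mark 2 motifs on either strand. One is a GATA motif, searched as AGATAA or TGATAA and as AGATAG or TGATAG. The other is a CACCC-type box, searched as CCNCNCCC, a pattern that also admits runs without the letters CACCC. The GATA motif is the sequence that GATA1 binds, and KLF1 binds CACCC boxes.
Rhag: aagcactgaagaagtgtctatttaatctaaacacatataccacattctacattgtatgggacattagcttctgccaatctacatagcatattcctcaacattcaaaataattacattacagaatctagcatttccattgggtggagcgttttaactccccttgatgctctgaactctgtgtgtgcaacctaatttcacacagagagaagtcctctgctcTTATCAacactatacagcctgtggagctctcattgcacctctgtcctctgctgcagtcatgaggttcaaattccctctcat
Rhd: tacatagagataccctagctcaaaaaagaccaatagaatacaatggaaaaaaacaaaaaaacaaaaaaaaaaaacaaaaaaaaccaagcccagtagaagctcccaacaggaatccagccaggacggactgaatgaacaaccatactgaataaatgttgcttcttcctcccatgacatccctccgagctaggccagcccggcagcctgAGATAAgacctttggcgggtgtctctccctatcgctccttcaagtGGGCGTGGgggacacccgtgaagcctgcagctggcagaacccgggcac
Add2: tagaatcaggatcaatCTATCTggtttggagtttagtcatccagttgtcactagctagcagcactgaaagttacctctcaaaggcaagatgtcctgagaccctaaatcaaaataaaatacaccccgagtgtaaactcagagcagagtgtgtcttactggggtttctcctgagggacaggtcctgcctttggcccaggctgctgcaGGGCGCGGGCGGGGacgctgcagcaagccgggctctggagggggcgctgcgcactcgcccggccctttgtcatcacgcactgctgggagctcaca
Sptb: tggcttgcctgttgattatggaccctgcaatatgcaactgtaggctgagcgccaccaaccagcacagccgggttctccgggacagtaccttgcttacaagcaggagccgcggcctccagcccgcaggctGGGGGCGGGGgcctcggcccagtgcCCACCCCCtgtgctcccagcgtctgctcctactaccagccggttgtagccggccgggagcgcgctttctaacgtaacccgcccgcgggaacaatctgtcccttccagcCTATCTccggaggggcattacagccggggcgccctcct
Epb42: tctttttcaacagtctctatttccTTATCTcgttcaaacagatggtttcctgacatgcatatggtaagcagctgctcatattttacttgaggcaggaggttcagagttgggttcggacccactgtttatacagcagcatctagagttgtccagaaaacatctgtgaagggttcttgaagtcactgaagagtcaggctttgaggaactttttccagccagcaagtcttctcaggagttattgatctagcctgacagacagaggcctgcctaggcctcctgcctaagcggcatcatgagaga
In these windows, counting the start as 0, the GATA motif lay at -31 to -26 in Rhag, -43 to -38 in Rhd, -234 to -229 in Add2, 12 to 17 in Sptb and -226 to -221 in Epb42. Matches to CCNCNCCC lay at 2 to 9 in Rhd, -45 to -32 in Add2 as an overlapping pair, and -121 to -112 and -96 to -89 in Sptb. Of these, only the match at -96 to -89 in Sptb, CCACCCCC, holds the letters CACCC. RefSeq windows were at hand for 6 of the 8 genes, 8 windows in all because Epb41 has 3 starts. A GATA motif was in 7 of these 8 windows, against 29.76% of 32851 promoter windows of the same length. A match to CCNCNCCC was in 5 of 8, against 49.47%, and both patterns were in 4 of 8, against 10.25%. A match is a run of letters and not a measured site.

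Per kilobase of exon, Rhd and Slc4a1 were the most abundant of the 8 RNAs, and Add2, Sptb and Ank1 the least. Averaged over the 12 specimens, the level was 122 CPM per kilobase for Rhd and 119 for Slc4a1, the anion exchanger. Rhag, the Rh-associated glycoprotein that carries ammonium or gas across the membrane, followed with 55.998, and Epb41, which joins spectrin to actin, with 37.2. Epb42, a transglutaminase relative that steadies the anion exchanger on ankyrin, had 16.1, Ank1 (ankyrin) 15.3, Sptb (beta spectrin) 14.1 and Add2 (beta adducin, which caps actin at the junctions) 10.8. The order at the top differed between groups. Rhd stood first in BTK inhibitor replicates 4 and 5 and in all 3 PI3K inhibitor specimens, while Slc4a1 stood first in BTK inhibitor replicate 6 and in all combination and vehicle specimens. In PI3K inhibitor specimens Rhd made up 41.8 ± 4.20% of the summed level per kilobase of the 8 genes, against 20.6 ± 3.45% in vehicle specimens (SD, n = 3). The slope of log2 CPM on gene length was negative in every specimen where Rhd stood first and positive in every specimen where Slc4a1 did. Rhd has 1514 exon bases and Slc4a1 has 4550. Levels per kilobase do not remove such a trend, and its part in the order and in the Rhd share was not tested. Levels of neighbours such as Ank1, Sptb and Epb42 did not differ beyond their spread over specimens, and their order changed from library to library.

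**Figure D1:**
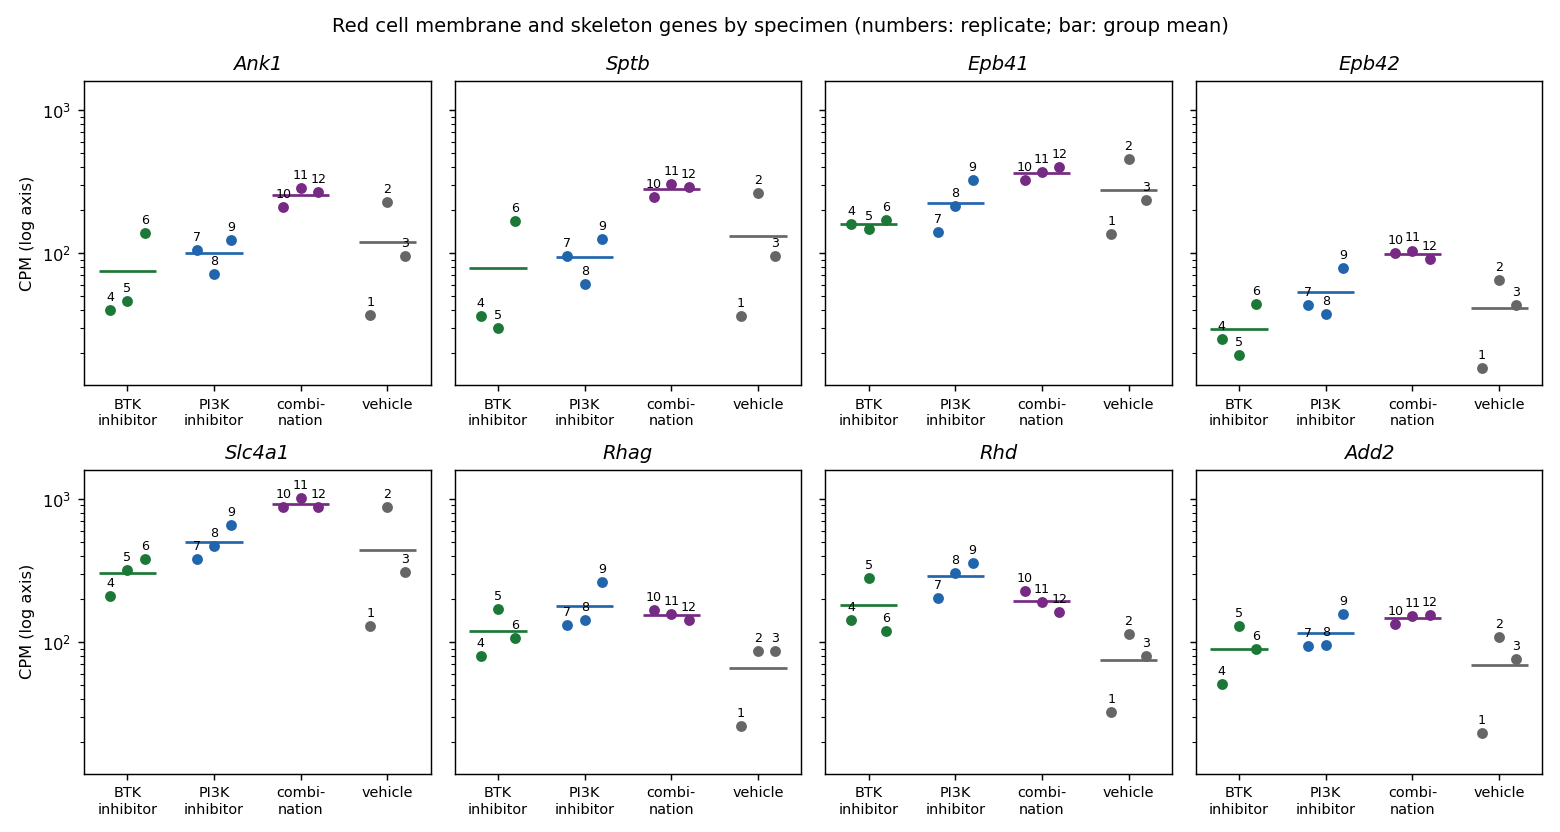
CPM of each of the 8 genes (log axis) in the 12 specimens by treatment, with points numbered by replicate and a bar at each group's mean. The combination specimens lie close together in every panel, vehicle replicates 1 and 2 lie far apart, and vehicle replicate 1 is the lowest point for 7 of the 8 genes.

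The scaffold RNAs Ank1 and Sptb followed each other specimen by specimen. Ank1 had 40.4, 46.04 and 138 CPM in BTK inhibitor specimens, 105, 71.8 and 124 in PI3K inhibitor specimens, 210.3, 288 and 267 in combination specimens and 36.8, 229 and 95.5 in vehicle specimens. Sptb had 36.6, 29.9 and 169 CPM under BTK inhibition, 95.3, 60.7 and 126 under PI3K inhibition, 247, 304 and 292 under both agents and 36.5, 263 and 95.6 with vehicle. For both genes the combination specimens lay above every BTK inhibitor and every PI3K inhibitor specimen, against 8.07% and 26.5% of all tested genes. The vehicle specimens spanned most of the whole range, so that combination and vehicle overlapped.

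At the junctions, Epb41 had 160.3, 149 and 172 CPM under BTK inhibition, 141, 213 and 324 under PI3K inhibition, 327, 370.2 and 399 under both agents and 137, 459 and 237 with vehicle. Add2 had 51.1, 129 and 89.8 CPM under BTK inhibition, 93.7, 95.1 and 156 under PI3K inhibition, 134, 151 and 155 under both agents and 23.2, 108 and 75.8 with vehicle. Vehicle replicate 2 held the highest Epb41 level of all specimens. For Add2, all combination specimens lay above all vehicle specimens, against 9.32% of all tested genes.

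In the bilayer, Slc4a1 had 209.9, 320.1 and 382 CPM under BTK inhibition, 381, 471 and 659 under PI3K inhibition, 881, 1015 and 874 under both agents and 130.3, 879 and 309 with vehicle. Epb42, its partner on the inner face, had 25.2, 19.4 and 44.5 CPM under BTK inhibition, 43.8, 37.5 and 78.8 under PI3K inhibition, 101, 105 and 91.9 under both agents and 15.7, 65.5 and 43.7 with vehicle. For Slc4a1, vehicle replicate 2 reached the combination's range, and for Epb42 it did not. The Rh genes had their highest mean under PI3K inhibition. Rhag had 79.5, 171 and 107 CPM under BTK inhibition, 132, 142 and 261 under PI3K inhibition, 167, 156 and 143 under both agents and 25.8, 85.9 and 85.8 with vehicle. Rhd, whose human counterpart carries the D antigen, had 143, 280.1 and 119.9 CPM under BTK inhibition, 204, 304 and 356 under PI3K inhibition, 227, 189 and 162 under both agents and 32.4, 113 and 79.7 with vehicle. Every inhibitor-treated specimen had more Rhd than every vehicle specimen.

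In 3 of the 4 groups the spread was wider for these genes than for others of like level. The median coefficient of variation of the 8 genes was 43.8% under BTK inhibition, 32.9% under PI3K inhibition, 9.28% under both agents and 61.0% with vehicle. Over 3276 tested genes of like level the medians were 37.7%, 21.0%, 11.9% and 18.5% in the same order. The gap was widest in vehicle specimens, where Slc4a1 had 879 CPM in replicate 2 and 130.3 CPM in replicate 1. The spread among 3 specimens of a group was not compared between groups with a test.

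With both inhibitors, all 8 genes had higher means than with vehicle, by 0.40 (Epb41) to 1.36 (Rhd) on the log2 scale and with a median of 1.09, and none passed the test. Over all 12742 tested genes the median was 0.00. Rhd averaged 193 ± 32.8 CPM in combination and 75.2 ± 40.7 CPM in vehicle specimens, and Epb42 averaged 99.2 ± 6.60 and 41.7 ± 24.99 CPM in the same order (SD, n = 3 each). Slc4a1 averaged 924 ± 79.5 CPM in combination and 440 ± 391 CPM in vehicle specimens. The 3 combination specimens lay above the 3 vehicle specimens for Epb42, Rhag, Rhd and Add2, 4 of 8 genes, against 9.32% of all tested genes. edgeR's quasi-likelihood test called 0 of 8 genes, against 0% of all tested genes, with Benjamini-Hochberg adjusted p of at least 0.747. The same 4 genes had an unadjusted p under 0.05, against 4.91% of all tested genes. The smallest of these p was 0.0077 for Rhd (log2 fold change 1.36 ± 0.43 SE, 95% interval 0.42 to 2.29). DESeq2 called 0 of 8, against 0.173% of all tested genes. Limma voom with quality weights, which gives less weight to libraries that fit poorly, called 8 of 8, with adjusted p from 0.00411 to 0.0261, against 9.66% of all tested genes. The median of the 8 fold changes was 0.66 without vehicle replicate 1 and 1.76 without vehicle replicate 2. Myeloid marker sums, taken without TMM scaling, were lower in the same comparison. Neutrophil markers summed to 74145 to 88339 CPM in combination and 96219 to 123022 CPM in vehicle specimens, and 0 of 11 had a positive fold change. Monocyte markers summed to 3531 to 3835 CPM in combination and 4224 to 5016 CPM in vehicle specimens, and 0 of 10 had a positive fold change. edgeR called 0 genes of either list, with 1 of each at an unadjusted p under 0.05, and their part in the result was not tested.

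With the PI3K inhibitor, 1 of the 8 genes passed the test. Rhd rose, averaging 288 ± 77.0 CPM with the inhibitor and 75.2 ± 40.7 CPM with vehicle (SD, n = 3 each), a log2 fold change of 1.94 ± 0.44 SE with adjusted p = 0.0399 (edgeR's quasi-likelihood test). Rhag had a log2 fold change of 1.44 ± 0.44 (adjusted p = 0.0514) and Add2 one of 0.74 ± 0.46 (adjusted p = 0.265). Epb42 and Slc4a1 had 0.36 and 0.20, and Epb41, Ank1 and Sptb had -0.30, -0.26 and -0.49, with adjusted p of 0.587 or more for these 5. The 1 of 8 genes called higher compares with 4.84% of all tested genes called higher, 617 of 12742, with 5.82% called lower and with 10.7% called in either direction. PI3K inhibitor and vehicle specimens did not overlap, with the inhibitor higher, for Rhd and Rhag, 2 of 8 genes, against 24.9% of all tested genes, so this share is near the background. Rhd and Rhag are the shortest of the 8 genes, and short genes had higher fold changes as a class in this comparison: the genes of like length to Rhd, within 25% of it, had a median of 0.54. Set against genes of like length, Add2 lay further above the median (by 1.74) than Rhd (1.40) and Rhag (1.28).

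The call on Rhd rested on the choice of specimens and on the model, and it was kept with the other library scalings. Its fold change kept its direction in all alternatives, between 1.36 and 2.42, but the adjusted p was above the threshold when PI3K inhibitor replicate 8 or 9, any combination specimen or any vehicle specimen was left out (0.0567 to 0.209). In each of these fits edgeR called no gene at all in this comparison. The adjusted p of Rhd was also above the threshold with a gene length offset (log2 fold change 1.36, adjusted p = 0.105). The same held with the presence of Y-linked transcripts as a covariate (1.90, adjusted p = 0.0699), and no gene was called in either of these 2 fits. Monocyte markers were lower in the same comparison, with 4 of 10 called lower. Their summed level, without TMM scaling, was 1693 to 2930 CPM in PI3K inhibitor and 4224 to 5016 CPM in vehicle specimens. None of the 10 was at 0 in any specimen, and the part of these markers in the result was not tested.

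With the BTK inhibitor, the 8 genes had fold changes in both directions and none passed the test. Rhd averaged 181 ± 86.6 CPM with the inhibitor and 75.2 ± 40.7 CPM with vehicle (SD, n = 3 each), a log2 fold change of 1.27 ± 0.43 with adjusted p = 0.141 (edgeR). Rhag had 0.85 ± 0.43 and Add2 0.38 ± 0.46. The other 5 genes had negative values, from -0.48 for Epb42 to -0.79 for Epb41, with adjusted p between 0.228 and 0.520. Only Rhd did not overlap between these groups, 1 of 8 genes, against 8.92% of all tested genes higher without overlap. edgeR called 0 of 8 genes, against 0% of all tested genes. An unadjusted p under 0.05 was found for 1 of 8, against 24.7% of all tested genes. DESeq2 and limma voom each called Rhd and no other of the 8, against 8.30% and 23.2% of all tested genes. The scaffold genes' values moved when BTK inhibitor replicate 6 or vehicle replicate 2 was left out. Without BTK inhibitor replicate 6, the Sptb value was -1.98 (adjusted p = 0.0277) and the Rhd value 1.49 (adjusted p = 0.0234), both past the threshold in edgeR, which then called 29.4% of all genes tested. Without vehicle replicate 2, Ank1, Sptb, Epb42 and Slc4a1 had values of 0.18, 0.25, 0.01 and 0.47. Leaving out BTK inhibitor replicate 5, the specimen high in Rn45s, gave a Rhd value of 0.81 and called 0 of 8 genes.

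Against each inhibitor alone, none of the 8 genes passed the test in the combination. Both comparisons use the same combination specimens, and long genes had higher fold changes as a class in both. Over the BTK inhibitor, the log2 fold changes were 1.84 for Sptb, 1.76 for Ank1, 1.73 for Epb42, 1.60 for Slc4a1, 1.19 for Epb41, 0.71 for Add2, 0.39 for Rhag and 0.09 for Rhd. For the first 6 of these, the specimens of the groups did not overlap, against 8.07% of all tested genes. edgeR called 0 of 8 genes, against 0% of all tested genes, with a lowest adjusted p of 0.186. An unadjusted p under 0.05 was found for 5 of 8, against 20.2% of all tested genes. DESeq2 called 2 and limma voom 6, against 4.05% and 39% of all tested genes. Without BTK inhibitor replicate 6, edgeR called Ank1, Sptb, Epb42 and Slc4a1, with values of 2.56, 3.07, 2.15 and 1.80, against 26.8% of all genes tested. Genes of like length to Sptb and Ank1 had medians of 0.55 and 0.51, and all 8 genes lay above such medians, by 0.17 (Add2) to 1.56 (Epb42). With a gene length offset the median of the 8 was 0.93, against 1.40 without it. Over the PI3K inhibitor, the fold changes were 1.58 for Sptb, 1.34 for Ank1, 0.89 for Epb42, 0.87 for Slc4a1, 0.69 for Epb41, 0.35 for Add2, -0.20 for Rhag and -0.58 for Rhd. The first 5 did not overlap, against 26.5% of all tested genes. edgeR called 0 of 8 genes, against 0% of all tested genes (lowest adjusted p 0.154). An unadjusted p under 0.05 was found for 2 of 8, against 28.7% of all tested genes. DESeq2 called 0 and limma voom 3, against 6.81% and 41.8% of all tested genes. Here genes of like length to Sptb and Ank1 had medians of 1.04 and 0.96. Only 4 of the 8 genes lay above such medians, Epb42 by 0.71, Sptb by 0.54, Slc4a1 by 0.47 and Ank1 by 0.38, and Add2 lay 0.67 below. With the offset the median of the 8 was 0.14, against 0.78 without it, and 4 of 8 were positive, against 6. For Rhd the 95% interval of the difference between the combination and the PI3K inhibitor ran from -1.50 to 0.34, so a lower level and a like level are not separated.

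The interaction asks whether the effect of the combination differs from the sum of the single effects on the log2 scale. For Rhd it did so. Its interaction was -1.84 ± 0.61, with a 95% interval of -3.15 to -0.53 and adjusted p = 0.0397 (edgeR), where the combination over vehicle stood at 1.36 and the single agents at 1.27 and 1.94. This 1 of 8 genes called lower compares with 15.6% of all tested genes called lower and 27.6% called in either direction, so the share is not above the background. Among the 2194 genes of like length to Rhd, the median interaction was -0.93 and 32.8% were called, and Rhd lay at the 16.4th percentile. Rhag had -1.05 ± 0.61 and Add2 -0.03 ± 0.65. The other 5 genes had positive values, 2.32 ± 0.97 for Sptb, 2.03 ± 0.81 for Ank1, 1.48 ± 0.56 for Epb41, 1.41 ± 0.73 for Slc4a1 and 1.37 ± 0.64 for Epb42, with adjusted p from 0.0614 to 0.154. Genes of like length had positive medians too, 1.55 for Sptb, 1.46 for Ank1, 1.13 for Epb41, 0.70 for Slc4a1 and 0.34 for Epb42, and 63.8% to 87.2% of such genes lay at or below the 5 genes. The median interaction of the 8 genes was 0.28 with the length offset, against 1.39 without it. The Rhd call depended on most single specimens. It held without BTK inhibitor replicate 6 (-2.06) or PI3K inhibitor replicate 7 (-2.03), and was lost on leaving out any of the other 10 specimens, with values between -2.26 and -1.39 and adjusted p between 0.0523 and 0.0969. With the length offset the Rhd interaction was -0.94 with adjusted p = 0.293, and with the Y-linked covariate it was -1.80 with adjusted p = 0.0624. In all, 5 of the 8 genes were called without BTK inhibitor replicate 6 (Ank1, Sptb, Epb41, Epb42 and Rhd), against 44% of all genes tested, and 5 without vehicle replicate 1 (Ank1, Sptb, Epb41, Epb42 and Slc4a1), against 17.4%. DESeq2 called 4 and limma voom 3, against 35.7% and 52.8%.

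Because several of the 8 genes are long and the libraries differed by gene length, each gene was also set beside tested genes within 25% of its own length. In combination over vehicle, genes of every length had medians near 0, and the 8 genes lay above the medians of their like-length genes by 0.41 for Epb41 to 1.35 for Rhd, at the 86.9th to the 98.95th percentile. In PI3K inhibitor over vehicle, long genes had lower fold changes as a class. The 867 genes of like length to Ank1 had a median of -0.92 and the 2194 of like length to Rhd one of 0.54. Set against such genes, all 8 lay above the median, from 0.45 for Epb41 to 1.74 for Add2, at the 75.9th to the 98.7th percentile. In BTK inhibitor over vehicle, 3 of 8 lay above, namely Rhd, Rhag and Add2, within a range of -0.37 to 0.89. These percentiles describe the position of the 8 genes and are no test.

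**Figure D2:**
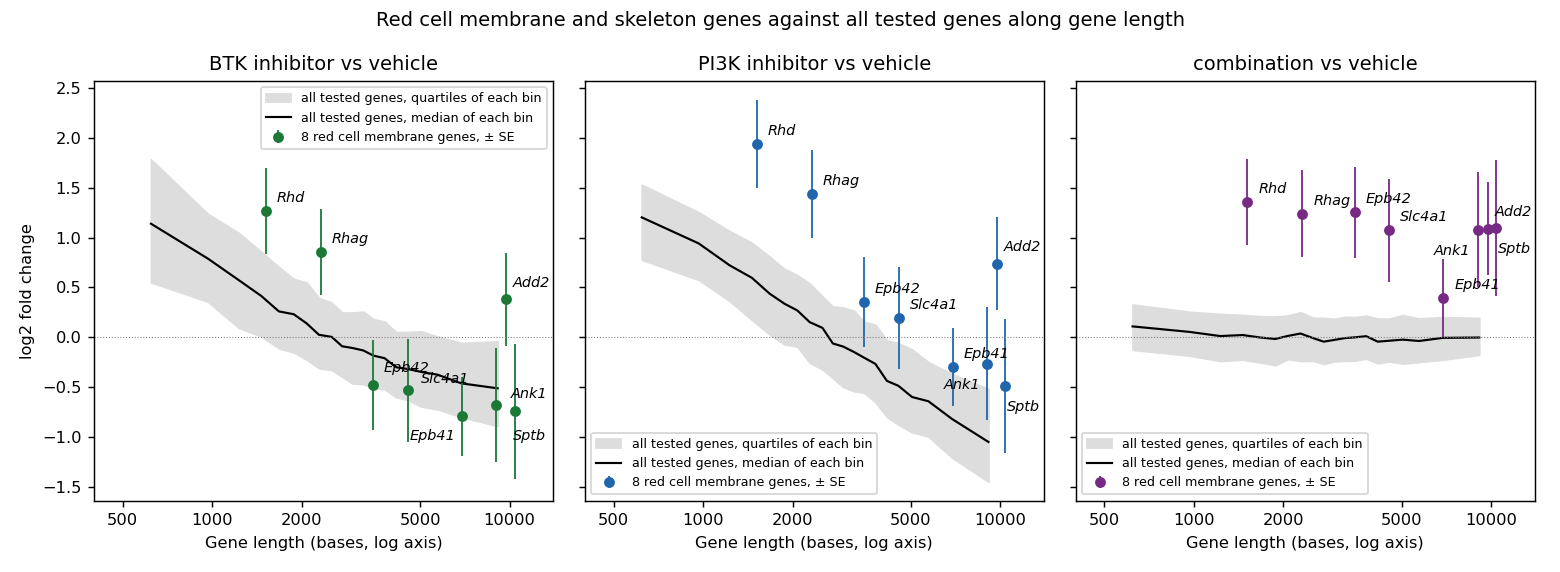
Log2 fold change over vehicle against exon length (bases, log axis) for the 8 genes (points, ± SE) and for all tested genes in 20 bins of length (line, median; grey, quartiles). In the PI3K inhibitor panel the line slopes downward and the 8 points follow it from above, and in the combination panel the line is flat and the points lie between 0.40 and 1.36.

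With a gene length offset in the model, the PI3K inhibitor's fold changes came closer together. All 8 were positive, from 0.57 for Epb41 to 1.76 for Add2, and their median was 0.74, against 0.28 without the offset. Add2, one of the longest, had 1.76 ± 0.44 with adjusted p = 0.0725. Ank1, Sptb and Epb41 had 0.75, 0.61 and 0.57 in place of -0.26, -0.49 and -0.30. No gene of the 8 and none of the 12742 tested genes was called by edgeR with the offset in this comparison, with 3 of the 8 at an unadjusted p under 0.05. Leaving out BTK inhibitor replicate 5 as well, 3 of 8 were called, against 18.6% of all genes tested, Add2 with 1.75 (adjusted p = 0.0139), Rhd with 1.36 (0.0256) and Rhag with 1.34 (0.0298). The combination's values hardly moved, with a median of 1.14, and the BTK inhibitor's median was -0.15, with Rhag, Rhd and Add2 at 0.96, 0.85 and 0.98 and the other 5 genes between -0.28 and -0.12. Length differences between libraries coincide in part with treatment, so the offset and the groups cannot be fully told apart.

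**Figure D3:**
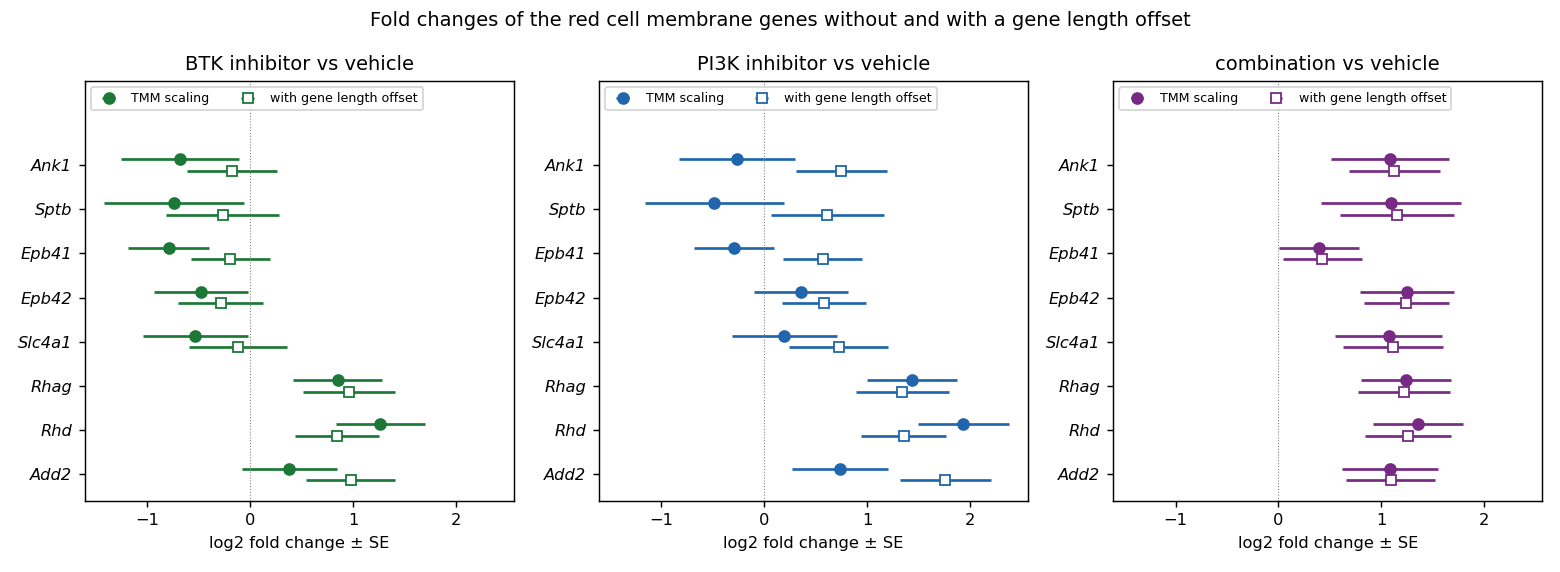
Log2 fold change over vehicle (± SE) of the 8 genes with TMM scaling (filled) and with a gene length offset (open), for the BTK inhibitor, the PI3K inhibitor and the combination. With the offset all 8 PI3K inhibitor values lie between 0.57 and 1.76, and the combination's values move little.

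Across the 12 specimens all pairs of the 8 RNAs had positive correlations of very unequal size. The points share libraries, depth and length trends, so the correlations are descriptions. Ank1 and Sptb had Pearson r = 0.99 for log2 CPM, and Ank1, Sptb, Epb42 and Slc4a1 had r between 0.87 and 0.99 with each other. Rhag had r = 0.94 with Rhd and 0.93 with Add2. The lowest values were 0.16 for Sptb and Rhd, 0.24 for Epb41 and Rhd and 0.26 for Ank1 and Rhd. The 8 genes did not fall into separate sets, since Slc4a1 had r = 0.87 with Add2, above the 0.80 of Rhd and Add2, and 0.56 with Rhd. After the length trend of each library was taken out, r was 0.59 for Sptb and Rhd, 0.74 for Ank1 and Rhd and 0.88 for Slc4a1 and Rhd, the last above the 0.82 of Sptb and Slc4a1. Ank1 and Sptb had 0.98, and Rhag had 0.96 with both Rhd and Add2. Over all 28 pairs r ranged from 0.16 to 0.99 (median 0.78), and from 0.48 to 0.98 (median 0.75) after adjustment. Add2, a long gene, had higher r with the short Rhag and Rhd than with the long Ank1 and Sptb in both measures.

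**Figure D4:**
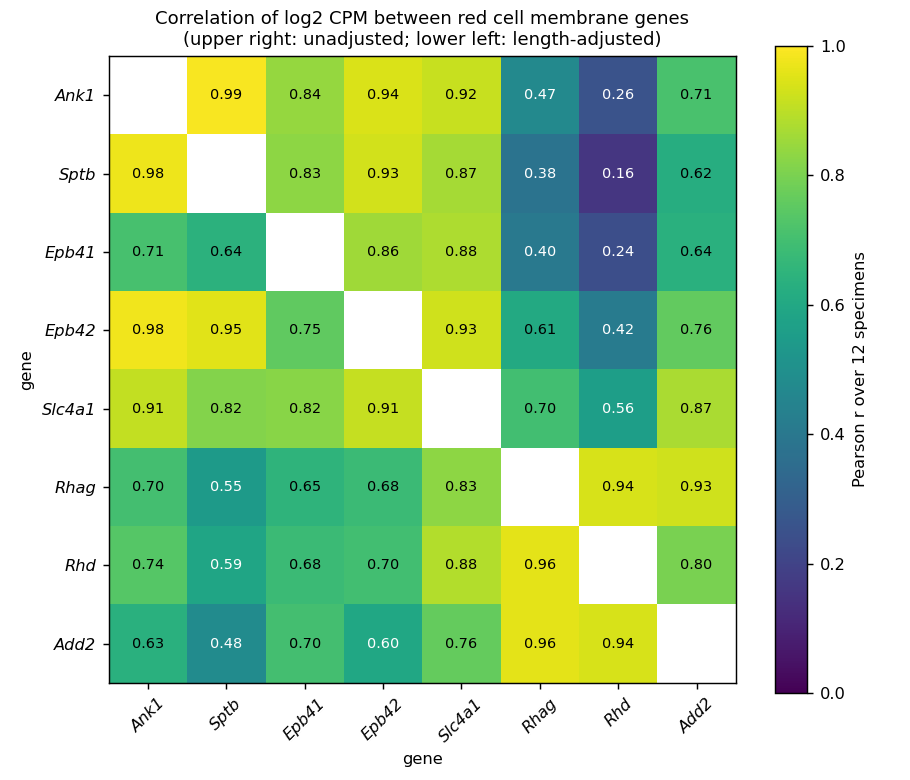
Pearson r over 12 specimens between the 8 genes, for log2 CPM (upper right) and for log2 CPM with each library's gene length trend removed (lower left). Both axes list the genes, colour runs from 0 to 1, and the lowest value is 0.16 for Sptb and Rhd before and 0.48 for Sptb and Add2 after the adjustment.

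Ratios between genes within a library were taken per kilobase. Sptb over Ank1 was 0.803 ± 0.248 under BTK inhibition, 0.800 ± 0.0759 under PI3K inhibition, 0.963 ± 0.0526 under both agents and 0.909 ± 0.0750 with vehicle (SD, n = 3 each) and ran from 0.563 in BTK inhibitor replicate 5 to 1.06 in BTK inhibitor replicate 6. Slc4a1 over Rhag was 1.37 ± 0.433 under BTK inhibition, 1.48 ± 0.204 under PI3K inhibition, 3.03 ± 0.319 under both agents and 3.20 ± 1.78 with vehicle. All 6 single-agent specimens had a lower Slc4a1 to Rhag ratio than all 6 combination and vehicle specimens, by a narrow margin between BTK inhibitor replicate 6 (1.82) and vehicle replicate 3 (1.83). Sptb over Rhd was 0.0860 ± 0.104, 0.0496 ± 0.0195, 0.219 ± 0.0540 and 0.226 ± 0.0972 in the same order of groups. BTK inhibitor replicate 6 stood apart here, with 0.205 against 0.0373 and 0.0155 in BTK inhibitor replicates 4 and 5. The slope of log2 CPM on gene length was also positive in replicate 6 (0.18) and negative in replicates 4 and 5 (-0.28 and -0.35), and the part of length in these ratios was not tested.

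**Figure D5:**
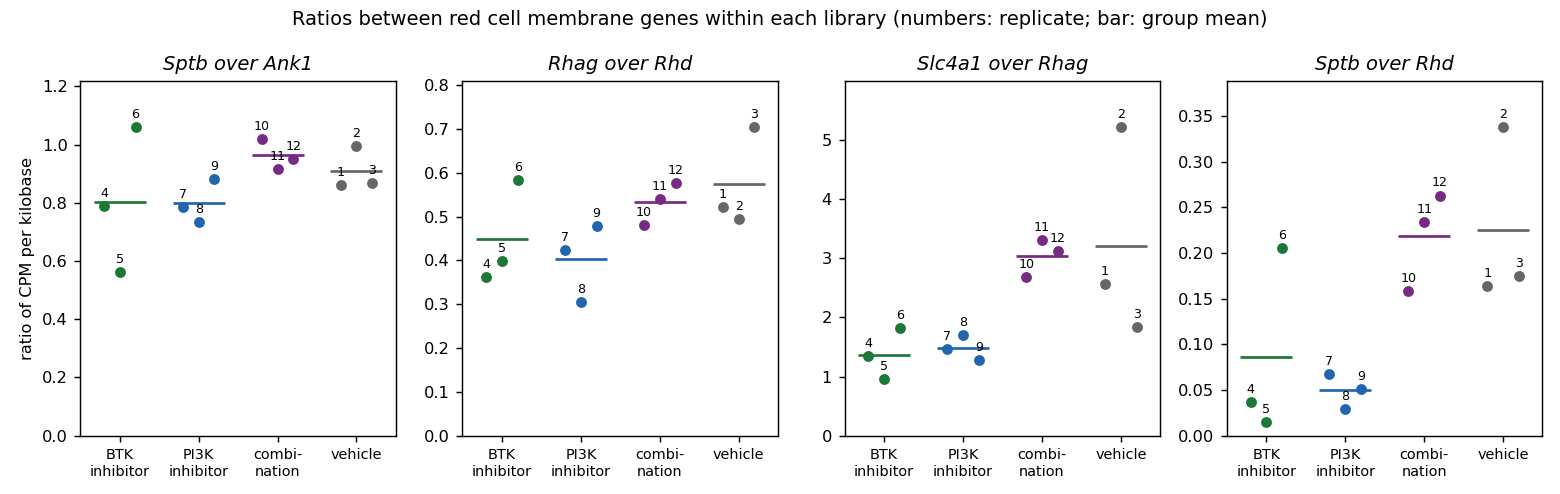
Ratios of CPM per kilobase between pairs of genes in each specimen, with points numbered by replicate and a bar at each group's mean. Sptb over Ank1 lies between 0.563 and 1.06 throughout, and Sptb over Rhd is below 0.07 in all single-agent specimens except BTK inhibitor replicate 6.

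Among 9586 other genes ranked by their correlation with the mean of the 8 standardised RNAs over 12 specimens, Fech stood first with r = 0.98. Fech encodes ferrochelatase, which puts iron into heme. Mpp2, Ermap (an erythroid membrane protein), Art4 (the Dombrock blood group protein in humans), Slc6a9 (a glycine carrier that feeds heme synthesis), Ttll12, Tmem56, Zdhhc14, Slc43a1 and Gab1 followed, with r from 0.98 to 0.96. Fech averaged 123 ± 22.2 CPM with the BTK inhibitor, 207 ± 85.3 CPM with the PI3K inhibitor, 277 ± 20.6 CPM with the combination and 143 ± 74.2 CPM with vehicle (SD, n = 3 each). These genes were chosen on the same specimens as the 8 were measured in, so their levels are a description and their group differences are no test. One by one, the nearest gene was Slc16a10 for both Ank1 (r = 0.99) and Sptb (0.98), Fam46c for Epb41 (0.96), Tfdp2 for Epb42 (0.98), Fhdc1 for Slc4a1 (0.98), Ptdss2 for Rhag (0.98), Stard10 for Rhd (0.98) and Btnl10 for Add2 (0.98).

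Other genes of the red cell membrane and skeleton gave a wider view. Of 34 listed, 33 were tested. With the PI3K inhibitor edgeR called 7 higher and 0 lower, against 4.84% and 5.82% of all tested genes. No gene at all was called in this comparison with the length offset, with the Y-linked covariate or on leaving out any 1 vehicle or combination specimen. With the length offset the median of the 33 fold changes was 0.66. Icam4, an adhesion molecule of red cells, averaged 34.6 ± 16.9 CPM with the inhibitor and 7.22 ± 3.20 CPM with vehicle (log2 fold change 2.26, adjusted p = 0.0396). Ackr1, the Duffy chemokine receptor, averaged 25.4 ± 11.5 and 6.56 ± 3.11 CPM (1.95, adjusted p = 0.0388) in the same order of groups. Abcg2, a porphyrin exporter, averaged 97.9 ± 42.7 and 35.6 ± 15.3 CPM (1.46, adjusted p = 0.0413), and Gypc (glycophorin C), which anchors the Epb41 protein, 165 ± 56.6 and 71.2 ± 21.7 CPM (1.21, adjusted p = 0.0407), again in that order. Cd59a and Tpm1 were also among those that rose, with log2 fold changes of 2.52 and 0.91, and were named after their values were seen. The median of the 33 fold changes was 0.55 with the PI3K inhibitor, where all tested genes had -0.01, 0.67 with the combination and 0.13 with the BTK inhibitor. In these last 2 comparisons edgeR called 0 of 33, with 17 and 5 at an unadjusted p under 0.05, against 4.91% and 24.7% of all tested genes.

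Relatives of the 8 genes, most of which serve mainly other tissues, were listed beside them. Add1 stands both in this list and among the other red cell membrane and skeleton genes, so the lists are not fully separate. Of 28 listed paralogs 17 were tested, and in combination over vehicle 6 of 17 were positive with a median of -0.20. edgeR called 0 there, with 0 at an unadjusted p under 0.05, against 4.91% of all tested genes. With the PI3K inhibitor 3 of 17 were positive and the median was -0.50. Sptbn1, a beta spectrin of nucleated cells, was the 1 gene called, lower, against 5.82% of all tested genes called lower. Sptbn1 had 49.7 ± 17.3 CPM with the inhibitor and 167 ± 71.8 CPM with vehicle (log2 fold change -1.74, adjusted p = 0.0396, edgeR). With the BTK inhibitor 5 of 17 were positive and the median was -0.47 (edgeR called 0, with 4 at an unadjusted p under 0.05, against 24.7% of all tested genes). The paralogs' median length was 4463 bases, and with the length offset the medians were -0.35 with the PI3K inhibitor, -0.23 with the combination and -0.20 with the BTK inhibitor.

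Some erythroid genes outside the membrane were called with the PI3K inhibitor, where 4.84% of all tested genes were called higher. edgeR called no gene there with the length offset, with the Y-linked covariate or on leaving out any 1 vehicle or combination specimen. Medians were 1.34 for heme synthesis, 0.55 for transcription factors, 0.98 for late erythroid and 0.24 for early erythroid and progenitor genes. With the length offset they were 0.91, 0.62, 0.80 and 0.19 in that order. Of 11 heme synthesis genes 6 rose, among them Uros (log2 fold change 1.97, adjusted p = 0.0388), with 121 ± 56.3 CPM with the inhibitor and 30.7 ± 9.27 CPM with vehicle, Urod (1.84), Tmem14c (1.81) and Slc25a38 (1.34). Of 10 erythroid transcription factors 2 rose, Gata1 (1.69, adjusted p = 0.0407) and Lmo2 (0.93, adjusted p = 0.0407). Of 13 late erythroid genes 2 rose, Tspo2 (2.13) and Car2 (1.47), and of 8 early erythroid and progenitor genes 1 rose, the erythropoietin receptor Epor (1.43). In combination over vehicle, edgeR called 0 genes of these 4 lists. The medians there were 1.04 for heme synthesis, 0.86 for the transcription factors, 0.70 for late erythroid and 0.35 for early erythroid and progenitor genes. In that order 10, 5, 5 and 3 genes had an unadjusted p under 0.05, against 4.91% of all tested genes.

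Markers of the other marrow cells gave few calls. With the PI3K inhibitor, 4.84% of all tested genes were called higher and 5.82% lower. Of 9 tested megakaryocyte markers, a lineage that shares GATA1 with red cells, Gp9 rose with the PI3K inhibitor (log2 fold change 1.07, adjusted p = 0.0396), and the list's median was 0.02. Monocyte markers that fell were Fn1 (-2.67), Itgam (-1.24), Cx3cr1 (-1.10) and F13a1 (-1.01), and of 11 neutrophil markers Cxcr2 fell (-0.96). The neutrophil list as a whole had 5 of 11 positive and a median of -0.20, or 1 positive and -0.71 with the length offset. Its summed level, without TMM scaling, was 129674 ± 29942 CPM with the PI3K inhibitor and 113451 ± 14954 CPM with vehicle (SD, n = 3 each). edgeR called 0 of 10 B lineage and 0 of 9 T and NK markers with the PI3K inhibitor. Of these, 1 and 0 had an unadjusted p under 0.05, against 35.7% of all tested genes. With the BTK inhibitor, 9 of 10 B lineage markers were positive, with a median of 1.19, or 0.66 with the length offset. There edgeR called 0 of them, with 7 at an unadjusted p under 0.05, against 24.7% of all tested genes. The T and NK markers had 4 of 9 positive there, with 0 at an unadjusted p under 0.05. The summed B lineage level, without TMM scaling, was 154 to 505 CPM under BTK inhibition and 196 to 211 CPM under PI3K inhibition. It was 232 to 324 CPM under both agents and 131 to 282 CPM with vehicle. Its highest unscaled value was in BTK inhibitor replicate 6. After TMM scaling, the mean log2 CPM of the B lineage markers was 5.18 there and 5.05 in BTK inhibitor replicate 5. Only replicate 6 of these had high Ank1 and Sptb, and the part of B lineage cells in those levels was not tested.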

How the data were processed

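Marrow mononuclear cells gave RNA by an RNeasy micro kit, which was turned into full-length cDNA with SMART-Seq v4 and tagmented with Nextera XT, per the labels' protocols. STAR, featureCounts and mm10 are named in the submitters' processing notes, with versions and settings not given in the sources used here. Raw counts per gene were deposited by the authors, with each gene's exon length in bases, in 1 column per specimen number, and the labels do not say how the 2 samples of a specimen were joined. Specimens of 1 group differed well beyond counting noise (chi-square per degree of freedom 20.5 to 633), so all 12 were kept apart.

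R 4.3.3 and edgeR 4.0.16 were used, with filterByExpr (smallest count 10, total 15), TMM scaling and robust glmQLFit and glmQLFTest over all 12 specimens by group. Benjamini-Hochberg adjustment ran over all 12742 tested genes with a threshold of 0.05, in each of 6 comparisons. CPM of a single gene refers to the counts of tested genes after TMM scaling. Summed levels of marker lists are CPM over all rows of the count table, without TMM scaling. TMM factors ran from 0.55 in BTK inhibitor replicate 5 to 1.24 in combination replicate 12, so sums and single genes are not on the same scale. The prior count for log2 CPM was 2. Standard errors were taken from the F statistic. The length offset was a natural spline with 5 degrees of freedom on log2 length, per library. The alternatives were other scalings and filters, DESeq2 1.42.0, limma 3.58.1 voom with quality weights, the length offset with and without BTK inhibitor replicate 5, only the groups compared, globins or Rn45s left out, a covariate for Y-linked transcripts, and each specimen left out. The tests were tried on simulated data. With 3 specimens per group, the spread between specimens limits precision, since counting error is about 10.2% even at the lowest count of 96.

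The 8 genes and all lists were chosen with earlier results of these data known. Besides the 8 genes, each list gave up to 4 genes past the threshold over vehicle with the smallest p, or otherwise 2, and the genes most like the 8 were named by correlation, leaving out those with a mean log2 CPM under 2. By this rule Cd79b and Ms4a1 stood for B lineage and Cd3e and Nkg7 for T and NK cells, none of them called. Sptbn5, Ahsp, Ly6g and Trbc2, and promoter windows of Ank1 and Slc4a1, are not analysed here.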

Additional observations from a re-analysis of the deposited data

Results flagged for a closer look

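With all 12 specimens, a test of the difference itself called the inhibitors' effects on Rhd unequal between single and joint use. The interaction was -1.84 on the log2 scale (adjusted p = 0.0397, edgeR), and the same test called 27.6% of all tested genes. The PI3K inhibitor's fold change over vehicle was 1.94, the BTK inhibitor's 1.27 and the combination's 1.36. The call was lost on leaving out any of 10 of the 12 specimens (adjusted p of 0.0523 to 0.0969), and with a covariate for Y-linked transcripts (-1.80, adjusted p = 0.0624). The interaction was -0.94 with the gene length offset (adjusted p = 0.293), and DESeq2 and limma voom gave -1.89 and -2.14 (adjusted p of 0.0127 and 0.0039). Genes of like length to Rhd had a median interaction of -0.93, and Rhd lay at the 16.4th percentile of them.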

How the results depend on the processing

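No paired analysis was possible because specimen numbers run from 1 to 12 and no 2 groups share one. The number of the 8 genes called in PI3K inhibitor over vehicle was 1, and 2 with upper quartile scaling, no filter, DESeq2 or only the groups compared, 3 with limma voom or with the length offset without BTK inhibitor replicate 5, and 0 with the length offset or the Y-linked covariate. DESeq2 and limma voom called 24.97% and 37.4% of all genes there. DESeq2 and limma voom called 1 and 1 in BTK inhibitor over vehicle (0 by edgeR), 2 and 6 in combination over BTK inhibitor (0), and 4 and 3 in the interaction (1). Limma voom called 8 in combination over vehicle and 3 in combination over PI3K inhibitor, both 0 by edgeR, and 4 were called in the second with only the groups compared. The interaction lost its 1 call with the length offset, the offset without BTK inhibitor replicate 5 and the Y-linked covariate (0 each). Leaving out 1 specimen gave 0 to 2 calls in BTK inhibitor over vehicle, 0 to 2 in PI3K inhibitor over vehicle, 0 to 4 in combination over BTK inhibitor, 0 to 5 in the interaction, and 0 in the others. Over all genes, leaving out 1 specimen gave 0 to 4375 calls in PI3K inhibitor over vehicle (1359 with all) and 0 to 5692 in the interaction (3522), and other settings gave 0 to 4761 and 1 to 6729. Where edgeR called 0 of all genes, leaving out 1 specimen gave up to 3809 in BTK inhibitor over vehicle, 3470 in combination over BTK inhibitor and 2499 in combination over PI3K inhibitor, and other settings up to 2950, 4973 and 5331. In combination over vehicle these were 0 and up to 1231.

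Some signs turned. In PI3K inhibitor over vehicle, Ank1, Sptb and Epb41 were positive with limma voom (0.55, 0.40, 0.16), with the length offset (0.75, 0.61, 0.57) and with the offset without BTK inhibitor replicate 5 (0.74, 0.60, 0.56). Leaving out 1 specimen gave -0.70 to 0.60 for Ank1, -0.93 to 0.51 for Sptb, -0.65 to 0.27 for Epb41, -0.036 to 0.84 for Epb42 and -0.24 to 1.19 for Slc4a1, with each highest value without vehicle replicate 2. In BTK inhibitor over vehicle, Ank1 and Sptb were 0.0083 and 0.080 with the offset without replicate 5, and Slc4a1 was 0.049 with limma voom. Leaving out 1 specimen gave -1.49 to 0.18 for Ank1, -1.98 to 0.25 for Sptb, -0.90 to 0.0085 for Epb42, -0.97 to 0.47 for Slc4a1 and -0.035 to 0.86 for Add2, again highest without vehicle replicate 2. In combination over PI3K inhibitor, Add2 and Epb41 were negative with the offset (-0.67, -0.14) and with the offset without BTK inhibitor replicate 5 (-0.65, -0.14), and Rhag ran from -0.37 to 0.18 on leaving out 1 specimen, with its highest value without PI3K inhibitor replicate 9. In combination over BTK inhibitor, Rhd ran from -0.13 without BTK inhibitor replicate 6 to 0.56 without replicate 5. The Add2 interaction, -0.03 with all, was 0.17 with the Y-linked covariate, 0.066 with limma voom and 0.022 with no filter, and ran from -0.51 without vehicle replicate 2 to 0.39 without vehicle replicate 1. The causes were not tested. All 48 positions against genes of like length kept their side of the median with a 10% window. No alternative reversed a fold change of combination over vehicle, and leaving out globin genes or Rn45s moved no count of calls among the 8 genes.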
